A study of Mus musculus with 11 samples.

Results

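The 10 genes described here encode 1 receptor of the Notch pathway (Notch1), 4 ligands (Dll1, Dll3, Dll4 and Jag1), 1 enzyme that modifies the receptor (Lfng) and 4 transcriptional repressors of the Hes and Hey families (Hes1, Hes5, Hey1 and Heyl). They were chosen by name from a table of raw read counts for 13498 genes, and all 10 passed the filter on low counts that left 13292 genes to test. Counts came from 11 RNA-seq libraries of dissected mouse retina at E13.5, in the NMRI strain, with total RNA depleted of ribosomal RNA. All animals carried floxed Six3, and their mothers received tamoxifen (0.15 mL of a 20 mg/mL stock) at E10.5 and E11.5. The WT group had the genotype Six3F/F; Six6+/+ and no Cre (3 libraries). The Six3KO group added the CAGGCre-ERTM transgene (3 libraries). The Six6KO group was Six3F/F; Six6–/– without Cre (2 libraries remaining, since 1 was removed for high duplication). The DKO group carried both CAGGCre-ERTM and Six6–/– (3 libraries). CAGGCre-ERTM is a tamoxifen-activated Cre under a widely active promoter, so deletion was not limited to the retina. Because Cre was present in the Six3KO and DKO groups alone, loss of Six3 and presence of Cre cannot be told apart against WT or Six6KO. The design text describes pairs of retinas as biological replicates. It does not say whether each pair came from 1 embryo.

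In the Notch pathway, a ligand on one cell binds a Notch receptor on its neighbour, the receptor is cut, and its inner part enters the nucleus, joins the DNA-binding protein RBPJ and switches on repressor genes of the Hes and Hey families. In the embryonic retina these repressors hold down proneural factors and keep neighbouring cells dividing as progenitors while the ligand-bearing cell becomes a neuron. Lfng adds a sugar to the receptor's outer part and changes how it responds to Delta and Jagged ligands.

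Promoter windows of RefSeq (GRCm38.p6, from 250 bases before to 50 bases after the transcript start) were matched by symbol for 7 of the 10 genes and not for Hes1, Hey1 and Heyl. Lfng and Hes5 are printed, up to the start, because they were the members whose windows held the core of the RBPJ recognition site, TGGGAA on either strand. Each held 2 copies. The capitals mark the core, and both sequences run 5′ to 3′ on the plus strand, at chr5:140607091-140607340 for Lfng and chr4:154960673-154960922 for Hes5.
Lfng: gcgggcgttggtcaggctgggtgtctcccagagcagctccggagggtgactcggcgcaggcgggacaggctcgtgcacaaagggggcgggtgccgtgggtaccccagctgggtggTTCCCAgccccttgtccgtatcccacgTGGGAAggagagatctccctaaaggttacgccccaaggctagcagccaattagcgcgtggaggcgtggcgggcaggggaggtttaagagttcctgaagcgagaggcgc
Hes5: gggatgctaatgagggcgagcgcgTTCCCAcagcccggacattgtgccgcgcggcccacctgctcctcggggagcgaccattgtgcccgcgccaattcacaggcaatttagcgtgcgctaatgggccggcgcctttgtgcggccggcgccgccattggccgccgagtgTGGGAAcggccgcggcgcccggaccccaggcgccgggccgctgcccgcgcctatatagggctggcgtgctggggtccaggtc
In Lfng the copies began 135 and 108 bases before the start, the second sharing its first bases with an E box (CANNTG) of the form CACGTG. In Hes5 they began 226 and 82 bases before the start. Of 32851 RefSeq windows of the same length, 25.6% held TGGGAA, 72.3% held CANNTG and 42.5% held the N box (CACNAG), each on either strand. GTATCA, a core bound by Six3 and its relatives that was added to the search after the other motifs, was in 5.46% of windows and in none of those of the 7 members. These matches are letters in a window and are not measured binding.

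Library totals lay between 7807744 and 16403191 counts. Replicates differed by more than counting noise, with a chi-square per degree of freedom between 9.85 and 77.9. Six3 stood at 164 to 299 CPM (read counts scaled to library size by TMM) in WT libraries and at 56.2 to 98.2 CPM in DKO, and Six6 at 225 to 340 CPM against 52.8 to 99.8 CPM. Six3 was at 30.3 to 75.9 CPM in Six3KO, and Six6 at 76.8 to 131 CPM in Six6KO. In DKO against WT the log2 fold change of Six3 was -1.7, called in 6 of 11 alternative analyses. It was called in 0 of 6 fits without 1 library (adjusted p from 0.0971 to 0.424, edgeR). Six6, at -2.01, was called in 11 and 1 of them. A gene that did not pass may thus still have changed. DKO library rh021 had the highest level of both targeted genes in its group. All 9 retinal progenitor markers had reads in all libraries, with summed levels of 4340 to 6060 CPM in WT and 3690 to 4870 CPM in DKO. The markers did not move together, with 6 log2 fold changes below 0 and 3 above (median -0.15). Without overlap between the groups, 1 was lower (8.46% of all genes) and 3 were higher in DKO (9.03%). Some libraries stood apart in other tissue. Six3KO libraries rh012 and rh026 and Six6KO library rh020 held 15600, 12800 and 7550 CPM of 10 lens markers, against 7.14 to 925 CPM in the other 8 libraries. Blood vessel markers summed to 123 to 126 CPM in DKO and 193 to 365 CPM in WT, but much of that was Kdr (77.1 to 92.4 CPM in DKO, 149 to 204 CPM in WT), which retinal progenitors also express. Their mean log2 difference from the WT mean was -1.2 to -0.64 in DKO and -2.33 to 1.29 in WT, and 2 of the 10 did not overlap between the groups. Periocular mesenchyme markers summed to 44.7 to 103 CPM in DKO and 348 to 1920 CPM in WT, with Foxc2 at 0 in DKO rh021 and WT rh023. Their mean log2 difference from the WT mean was -3.98 to -2.99 in DKO, and no library of another group was below -2.54. A fit with this level as a covariate therefore separates it poorly from the DKO genotype. Ganglion cell markers summed to 907 to 1370 CPM in DKO and 1130 to 2190 CPM in WT, with 9 of 9 log2 fold changes below 0 (median -0.71). Macrophage markers (6 of 7 in the table) summed to 40.5 to 99.2 CPM in DKO and 21 to 48.3 CPM in WT, with 6 of 6 above 0 (median 1.21). In bulk RNA, fewer cells of a type and less RNA per cell cannot be told apart.

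Per kilobase of annotated exon, the WT levels ran from Hes5 (101 CPM per kb) through Hes1 (43.4) and Notch1 (25.9) to Dll1 (18.4), Dll4 (12.9), Lfng (12.1), Hey1 (12) and Jag1 (10.9), with Dll3 (4.01) and Heyl (2.93) lowest. Hes5 and Hes1, Hes1 and Notch1, and Jag1 and Dll3 did not overlap between their WT libraries. The neighbours from Notch1 to Jag1, and the pair of Dll3 and Heyl, overlapped. In DKO, Hes5 (48.5), Hes1 (30.0) and Notch1 (15.3 CPM per kb) kept the first places, while Lfng stood at 4.03 CPM per kb, below Hey1 at 9.34. The lengths are those of all exons of a gene in GENCODE vM21, which can exceed the transcript that the retina uses.

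In DKO retinas Lfng was the 1 member called lower by edgeR, from 30.4 to 10.1 CPM in the mean, a call kept in 2 of 6 fits without 1 library. All DKO libraries were below all others for Lfng, and also for Heyl (at most 8.88 CPM against at least 9.79 CPM). The share of all genes with that pattern was not computed. It cannot exceed the 8.46% of genes for which DKO lay below WT without overlap. The repressors Hes1, Hes5 and Heyl and the ligand Dll3 also lay lower in each DKO library than in any WT library, without passing the adjusted threshold in edgeR's quasi-likelihood test. Notch1, Dll1, Dll4 and Hey1 overlapped between DKO and WT, and so did Jag1, the member with a higher mean in DKO. Of the 10 genes 1 was called lower at a Benjamini-Hochberg adjusted p under 0.05 and 0 higher, beside 0.639% of all genes called lower. At an unadjusted p under 0.05, 5 were lower (7.53% of all genes) and 0 higher. Non-overlap in the lower direction held for 5 members and 8.46% of all genes. With DESeq2, Lfng, Hes1 and Heyl were called lower, against 3.43% of all genes. The log2 fold change was below 0 for 9 of 10 members, with a median of -0.65, while 50.8% of all genes were below 0 and their median was 0.

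**Figure D1:**
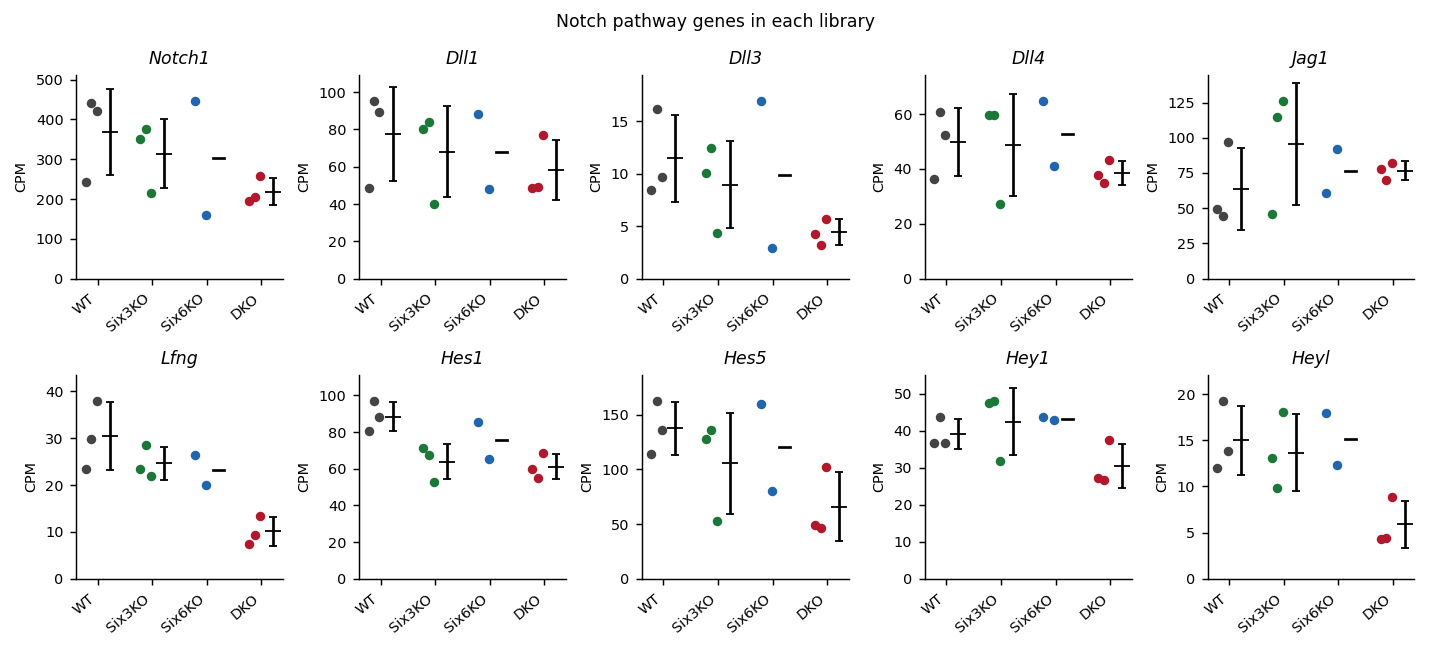
Level of each of the 10 genes in CPM (y axis, linear, from 0) in every library, by genotype group (x axis). Points are libraries, the bar beside them is the group mean with 1 SD, and for Six6KO (2 libraries) the mean alone. Lfng in DKO lies between 7.46 and 13.4 CPM, below every other library, while Jag1 overlaps in all groups.

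Notch1 (chr2:26457903-26516663, minus strand, GRCm38), the receptor of retinal progenitors, was at 244, 441 and 421 CPM in WT libraries rh016, rh023 and rh024. It was at 352, 376 and 214 CPM in Six3KO libraries rh006, rh012 and rh026, and at 446 and 160 CPM in Six6KO libraries rh007 and rh020. In DKO libraries rh010, rh011 and rh021 it was at 194, 204 and 257 CPM. The DKO values overlapped WT because rh021 exceeded rh016. Against WT the log2 fold change was -0.76 ± 0.38 (SE; adjusted p = 0.46, edgeR). Single mutants gave -0.23 ± 0.37 for Six3KO and -0.28 ± 0.42 for Six6KO, each smaller than its error. With a marker level as a covariate the DKO against WT value lay between -1.17 (mesenchyme) and -0.31 (ganglion cell). Blood vessel cells also use Notch1, and with the blood vessel level it was -0.94 ± 0.32 (adjusted p = 0.147). Exons of 2 genes on the other strand overlap Notch1, and no source used here states whether the counting used strand, so some reads may belong to them. The same holds for Dll1, Dll4 and Hes5, each with 1 such neighbour.

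Dll1 (chr17:15367354-15376872), the Delta ligand of newly forming neurons and their immediate precursors, was at 48.7, 95.2 and 89.3 CPM in WT and at 48.4, 49.2 and 77 CPM in DKO. Its Six3KO values were 80.2, 84.1 and 40.1 CPM, and its Six6KO values 88.4 and 47.9 CPM. The lowest library of each group was between 40.1 and 48.7 CPM, and no comparison separated Dll1. The log2 fold change of DKO against WT was -0.41 ± 0.37 (adjusted p = 0.751, edgeR). Dll4 (chr2:119325784-119335962), a ligand of neurogenic progenitors and of sprouting vessels, was at 36.4, 60.6 and 52.2 CPM in WT and 37.8, 34.7 and 43.2 CPM in DKO. In Six3KO it was at 59.5, 59.5 and 27.2 CPM and in Six6KO at 64.7 and 40.9 CPM. DKO and WT overlapped, with a log2 fold change of -0.37 ± 0.31 (adjusted p = 0.736). The lowest Dll1 and Dll4 values of the Six3KO and Six6KO groups were in rh026 and rh020. These libraries also had the lowest ganglion cell marker sums of their groups (695 and 826 CPM). In WT both genes were lowest in rh016, with a sum of 1650 CPM, while the lowest sum was in rh024 (1130 CPM). In DKO the lowest sum was in rh010 (907 CPM), where Dll1 was lowest, while Dll4 was lowest in rh011. The part of ganglion cells in these values was not tested. The DKO against WT values of Dll1 and Dll4 depended on which marker level was taken as a covariate. They were 0.05 and 0.11 with the ganglion cell level, -0.03 and -0.03 with the retinal progenitor level, -0.56 and -0.5 with the lens level, -0.62 and -0.54 with the blood vessel level and -0.93 and -0.9 with the mesenchyme level, none past the threshold.

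Dll3 (chr7:28293553-28302238), a divergent ligand that does not activate Notch on neighbouring cells, was scarce, at 8.44, 16.2 and 9.68 CPM in WT. In DKO it was at 4.26, 3.23 and 5.71 CPM, each below the lowest WT library. Six3KO ran from 4.34 (rh026) to 12.4 CPM (rh012), and the Six6KO libraries were at 16.9 (rh007) and 2.89 CPM (rh020), the latter below all DKO libraries. The DKO against WT log2 fold change of -1.37 ± 0.61 had an unadjusted p of 0.049 and an adjusted p of 0.381 (edgeR). It was -0.43 with the ganglion cell level, -0.82 with the retinal progenitor level and -2.19 with the mesenchyme level as a covariate, none past the threshold.

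Jag1 (chr2:137081456-137116644), a Jagged ligand used in lens, ciliary margin and vessel wall, was the 1 member with a positive value in DKO against WT. It was at 49.4, 44.5 and 97 CPM in WT, 46, 115 and 126 CPM in Six3KO, 61.1 and 92.1 CPM in Six6KO, and 78.1, 69.7 and 82.4 CPM in DKO. Its 4 highest values were in rh026, rh012, rh024 and rh020, the 4 libraries with the highest lens marker sums (12800, 15600, 925 and 7550 CPM). In DKO the lens sum was 7.14 to 124 CPM, with the lens markers Crygs, Foxe3 and Lim2 at 0 in rh010 and rh021. The DKO against WT log2 fold change was 0.27 ± 0.39 (adjusted p = 0.887), and with the lens marker level as a covariate it was 0.68 ± 0.26 (adjusted p = 0.323). Against Six3KO the value was -0.32 ± 0.39, and 0.83 ± 0.36 with the lens covariate, neither past the threshold (adjusted p = 0.836 and 0.692, edgeR).

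Lfng (chr5:140607320-140615545, plus strand), the sugar transferase whose promoter window is printed above, was at 23.4, 29.9 and 37.8 CPM in WT, 23.5, 28.6 and 21.9 CPM in Six3KO and 26.3 and 19.9 CPM in Six6KO. In DKO libraries rh010, rh011 and rh021 it was at 7.46, 9.44 and 13.4 CPM. The highest DKO library was below the lowest library of any other group, and WT and the single mutants overlapped. Group means were 30.4 ± 7.25 CPM (SD, n = 3) in WT, 24.7 ± 3.5 CPM in Six3KO, 23.1 CPM in Six6KO and 10.1 ± 3.02 CPM in DKO. The DKO against WT log2 fold change was -1.59 ± 0.25 (adjusted p = 0.0236, edgeR; 2.61e-06 with DESeq2). The value stayed between -1.84 and -1.4 when single libraries of the 2 groups were left out, but the call was lost in 4 of 6 such fits: without DKO rh010 (adjusted p = 0.125), DKO rh011 (0.136), WT rh023 (0.0636) and WT rh024 (0.0649). It was also lost with the mesenchyme marker level as a covariate (-1.69 ± 0.34, adjusted p = 0.0508), a level that did not overlap between DKO and the other groups.

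Hes5 (chr4:154960923-154962371), a repressor closely tied to Notch activity in retinal progenitors, was at 114, 162 and 136 CPM in WT. In DKO it was at 49.5, 46.7 and 102 CPM, with rh021 near the lowest WT library and the other 2 far below. Six3KO held 128, 136 and 52.6 CPM, and Six6KO 160 and 80.6 CPM, so rh026 and rh020 were below WT and their group mates were not. The DKO against WT log2 fold change was -1.06 ± 0.43 (unadjusted p = 0.0338, adjusted p = 0.32, edgeR). With the retinal progenitor marker level as a covariate, an alternative added after seeing the data, it was -0.72 and passed (adjusted p = 0.0179). It did not pass with the ganglion cell level (-0.43, adjusted p = 0.39) or the mesenchyme level (-1.62, adjusted p = 0.177). That marker list was lower in rh010 and rh011 (3830 and 3690 CPM) than in rh021 (4870 CPM), the same order as for Hes5.

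Hes1 (chr16:30064384-30067796), which keeps progenitors dividing and also responds to other signals, had the smallest SE of the 10 genes. It was at 80.6, 96.7 and 88.1 CPM in WT and at 59.7, 55 and 68.4 CPM in DKO. Six3KO libraries were at 71.4, 67.5 and 52.9 CPM, also below all WT libraries, and Six6KO libraries at 85.5 and 65.5 CPM. DKO and Six3KO overlapped. The log2 fold change against WT was -0.53 ± 0.15 in DKO (adjusted p = 0.138 with edgeR, 0.0265 with DESeq2) and -0.47 ± 0.15 in Six3KO (unadjusted p = 0.0121; adjusted p = 1 with edgeR and 0.493 with DESeq2). In DKO against WT it passed with the blood vessel level (-0.61) or the retinal progenitor level (-0.4) as a covariate (adjusted p = 0.0291 in each) and not with the ganglion cell level (-0.32, adjusted p = 0.17). Between DKO and Six3KO it was -0.07 ± 0.15 (adjusted p = 0.919).

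Heyl (chr4:123233556-123249875), a Hey-family repressor also expressed in vascular smooth muscle and pericytes, was at 12, 19.2 and 13.8 CPM in WT and 4.34, 4.47 and 8.88 CPM in DKO. Six3KO was at 13.1, 9.79 and 18.1 CPM and Six6KO at 18 and 12.3 CPM, all above the DKO libraries. The DKO against WT log2 fold change was -1.34 ± 0.35 (adjusted p = 0.115 with edgeR, 0.0136 with DESeq2). It was -1.76 ± 0.33 and passed without DKO rh021 (adjusted p = 0.0407). Pericyte markers (5 of 7 in the table) summed to 10.7 to 34.3 CPM in DKO and 11.4 to 86.4 CPM in WT. The part of pericytes in the Heyl values was not tested. With the blood vessel marker level as a covariate the fold change was -1.36 ± 0.35 (adjusted p = 0.0544). Hey1 (chr3:8663359-8667256), a related repressor, was at 36.6, 43.8 and 36.8 CPM in WT and 27.3, 26.8 and 37.4 CPM in DKO. Six3KO stood at 47.6, 47.9 and 31.9 CPM and Six6KO at 43.6 and 42.8 CPM. DKO rh021 fell inside the WT range, and the log2 fold change was -0.36 ± 0.19 (adjusted p = 0.482), and between -0.66 (mesenchyme) and -0.09 (ganglion cell) with a marker level as a covariate.

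Across the 4 groups the members shared the libraries in which they were high or low. In DKO, rh021 had the highest value of all 10 genes. In Six3KO, rh026 had the lowest value of 8 genes and the highest of Jag1 and Heyl. In Six6KO rh020 was the lower library for 9 genes, Jag1 being the exception, and in WT rh016 was lowest for 9. The median of the 10 log2 differences from the WT mean was -0.75, -0.74 and -0.39 in DKO libraries rh010, rh011 and rh021. It was -0.74 in Six3KO rh026 and -0.5 in Six6KO rh020, both with much lens RNA. In rh006, rh012 and rh007 it was -0.1, 0.12 and 0.24. WT libraries rh016, rh023 and rh024 were at -0.32, 0.28 and 0.05, and rh016 held 27.1 CPM of lens markers. Library rh012 held the most lens RNA and did not have a low median. The retinal progenitor marker sums of rh026 and rh020 were the lowest of all 11 libraries (3040 and 3620 CPM), and the part of tissue makeup in these values was not tested.

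**Figure D2:**
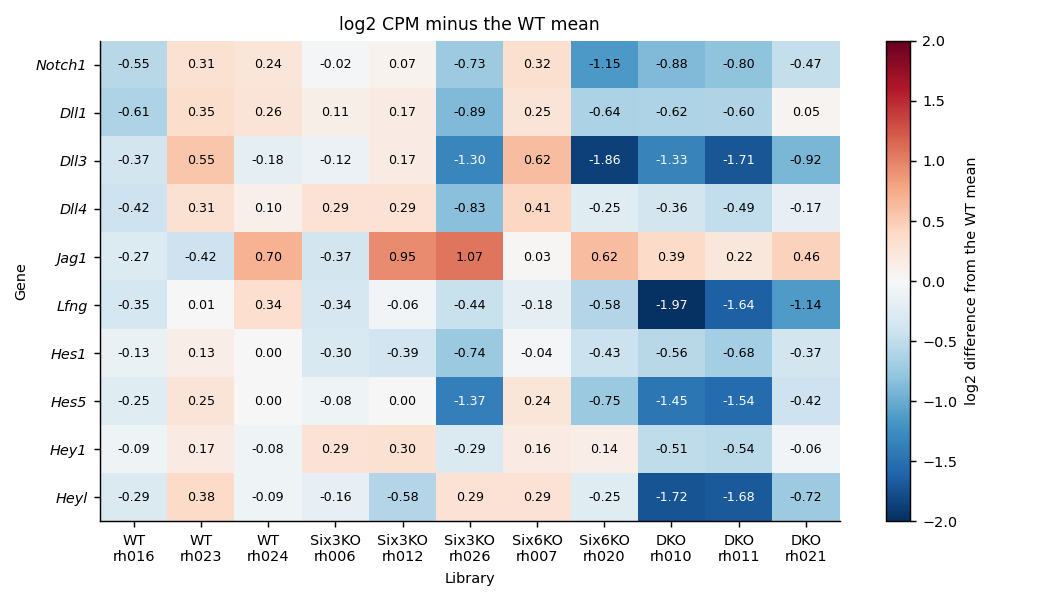
Difference of log2 CPM from the WT mean (colour and printed value, red higher, blue lower) for each of the 10 genes (rows) in each of the 11 libraries (columns, with group). The DKO columns are blue except for Jag1 and Dll1 in rh021, columns rh026 and rh020 resemble them for Notch1 and Hes5, and Lfng is between -1.97 and -1.14 in the DKO columns and not below -0.58 in the others.

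Loss of Six6 on top of Six3 was compared within Cre carriers (DKO against Six3KO), which share the transgene. Lfng had a log2 difference of -1.29 ± 0.25, just short of the threshold (adjusted p = 0.0582, edgeR; 0.000294 with DESeq2). Heyl had -1.21 ± 0.35 (adjusted p = 0.16 with edgeR, 0.0282 with DESeq2) and Hey1 -0.48 ± 0.19 (adjusted p = 0.297). Dll3 had -1.02 ± 0.6, Hes5 -0.68 ± 0.42 and Notch1 -0.52 ± 0.38, each with overlapping groups. With edgeR 0 of 10 were called, beside 0.256% of all genes called lower. At an unadjusted p under 0.05 there were 3 lower (8.49% of all genes) and with DESeq2 2 (4.14%). The groups did not overlap for 2 members, Lfng and Heyl, and for 1400 of all 13292 genes in the lower direction. All 10 log2 differences were below 0, with a median of -0.5, against 47.5% of all genes and a median of 0.01.

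DKO against Six6KO, which rests on 2 Six6KO libraries, gave -1.19 ± 0.27 for Lfng (adjusted p = 0.114 with edgeR, 0.0074 with DESeq2). Heyl was at -1.36 ± 0.38 (adjusted p = 0.17 with edgeR, 0.0367 with DESeq2) and Hey1 at -0.5 ± 0.21 (adjusted p = 0.295). With edgeR 0 of 10 were called (0.0677% of all genes called lower), 3 were lower at an unadjusted p under 0.05 (8.57%) and 2 with DESeq2 (2.7%). Lfng, Hey1 and Heyl did not overlap between the groups, beside 18.6% of all genes. The median of the 10 values was -0.49. These comparisons share the DKO libraries with the one against WT.

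Neither single mutant had a called member. In Six3KO against WT 0 of 10 were called with edgeR (0% of all genes called lower) and 0 with DESeq2 (0.0223%). The 1 member at an unadjusted p under 0.05 (1.2% of all genes, lower) and without overlap (3.7%) was Hes1. Lfng was at -0.3 ± 0.24 and the median of the 10 was -0.21. In Six6KO against WT 0 were called with edgeR (0%), 0 with DESeq2 (0%) and 0 at an unadjusted p under 0.05 (1.63%). Lfng was at -0.39 ± 0.28, Heyl at 0.02 ± 0.38 and the median was -0.19. These contrasts share the WT libraries, and a value under its own error does not show that the gene was the same in both groups.

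**Figure D3:**
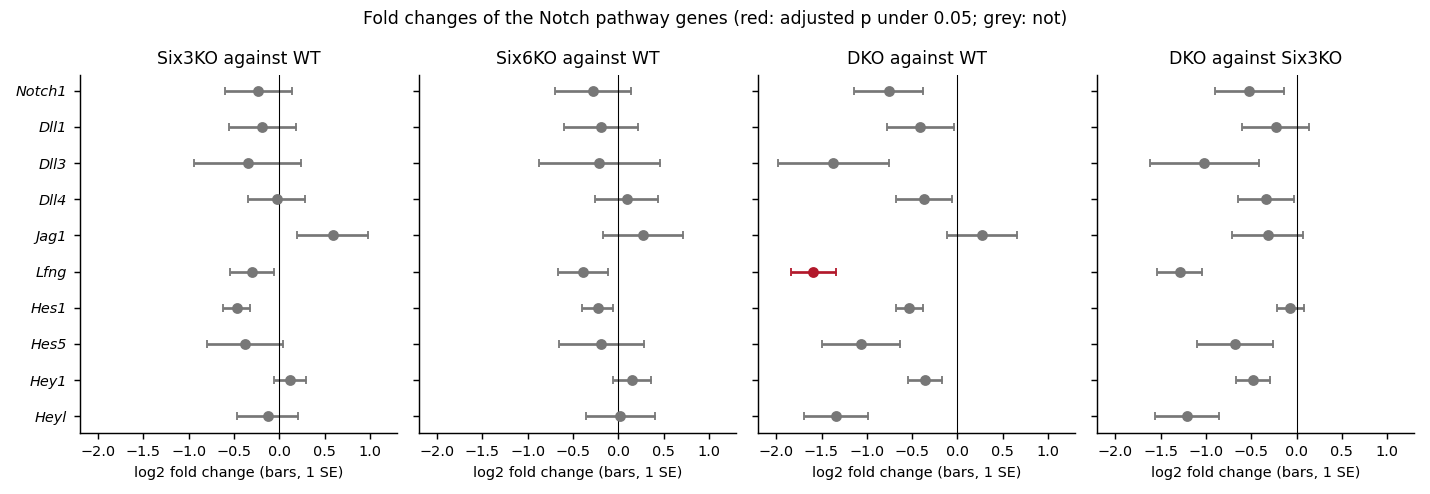
Log2 fold change of the 10 genes (rows) in 4 comparisons (panels), with bars of 1 SE; red marks an adjusted p under 0.05 in edgeR's quasi-likelihood test. Lfng in DKO against WT is the 1 red point, at -1.59, and its single-mutant values are -0.3 and -0.39.

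A further contrast, the departure from additivity, asks whether the joint loss differs from adding the log2 effects of Six3KO and Six6KO. It was -0.89 ± 0.37 for Lfng (unadjusted p = 0.0356, adjusted p = 0.457, edgeR), -1.22 ± 0.51 for Heyl (0.0379 and 0.464) and -0.62 ± 0.28 for Hey1 (0.0487 and 0.496). For Hes1 it was 0.16 ± 0.23 and for Dll1 -0.04 ± 0.55. With edgeR 0 of 10 departures were called (0% of all genes, lower), 3 were lower at an unadjusted p under 0.05 (6.07% of all genes), and with DESeq2 0 were called (1.22%). The departure of Lfng did not pass once p was adjusted over all genes tested, and at this number of libraries it stays unresolved.

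Of 59 other genes of the pathway, sorted by role, 55 were in the table and tested, and Aph1c, Hes2, Hes3 and Hes7 were not. In DKO against WT 1 of the 55 was called lower (0.639% of all genes), 0 higher. At an unadjusted p under 0.05, 7 were lower (7.53% of all genes) and 2 higher (5.47%), and 28 log2 fold changes were below 0 and 27 above, with a median of 0. The called gene was Tle3 (chr9:61372366-61418497), a Groucho-family corepressor that Hes proteins recruit to the genes they silence, and that Six3 and Six6 can bind as well. Tle3 was at 119, 151 and 191 CPM in WT, 117, 102 and 131 CPM in Six3KO, 154 and 91.7 CPM in Six6KO, and 41.2, 43.8 and 56.4 CPM in DKO. All DKO libraries were below all others, as for Lfng and Heyl, a pattern whose share over all genes was not computed. The log2 fold change was -1.7 ± 0.23 against WT (adjusted p = 0.0137, edgeR), -1.31 ± 0.23 against Six3KO (0.045) and -1.38 ± 0.25 against Six6KO (0.0716). The call against WT was lost without DKO rh010 (adjusted p = 0.092) or rh011 (0.0861), and the call against Six3KO was lost in each of 6 fits that left out 1 library of the 2 groups (adjusted p from 0.0572 to 0.262).

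In the other roles no gene was called, and the gene of smallest p in each is given here for the same contrast. For the receptors it was Notch4 at -0.56 ± 0.41, and for the ligands Jag2 at -0.76 ± 0.29, with 14 to 18.6 CPM in DKO and 19.2 to 31.3 CPM in WT. The ubiquitin ligase Neurl1b, which acts on ligand uptake, was at -0.75 ± 0.24, and the sugar transferase Mfng, a relative of Lfng, at -0.28 ± 0.31. The protease Adam10, which makes the first cut in the bound receptor, was at -0.43 ± 0.14 (adjusted p = 0.192 with edgeR, 0.0444 with DESeq2). The coactivator Maml3 was at 0.48 ± 0.21. Dtx3l, of the Deltex family, was at 1.74 ± 0.48 (adjusted p = 0.13 with edgeR, 0.00906 with DESeq2), with 39.6 and 33.6 CPM in rh010 and rh011 but 9.12 CPM in rh021, inside the WT range of 7.01 to 9.83 CPM. Macrophage markers had the same order, at 99.2, 91.6 and 40.5 CPM in rh010, rh011 and rh021. Dtx3l was at 13.9 to 25.4 CPM in Six3KO, above all WT libraries, and at 6.53 to 9.4 CPM in Six6KO. The macrophage sums were 49.5 to 67.5 CPM in Six3KO, and 32 and 63.9 CPM in Six6KO libraries rh007 and rh020. The part of macrophages in the Dtx3l values was not tested. Hey2 was at -0.47 ± 0.49. The core nuclear factor Rbpj was at 0.2 ± 0.17 and Notch2 and Notch3 at -0.13 ± 0.39 and -0.04 ± 0.23. These 3 were chosen after their values were seen, as the remaining receptors and the DNA-binding partner. Nrarp, among the inhibitors and turnover genes, was at 30.1 to 60.7 CPM in DKO and 58.6 to 78.1 CPM in WT, with overlap. It too was chosen after its values were seen, for the lowest log2 fold change of that role (-0.72).

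**Figure D4:**
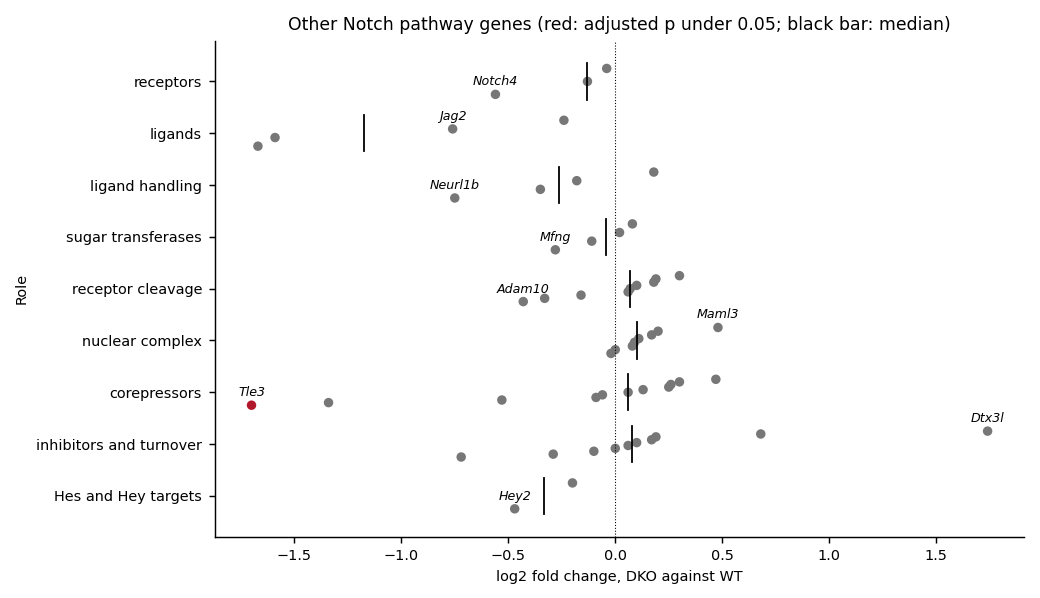
Log2 fold change in DKO against WT (x axis) of 55 other Notch pathway genes, by role (y axis); each point is a gene, the black bar is the median of the role, and a name marks the smallest p of each role. Tle3, at -1.7, is the 1 gene with an adjusted p under 0.05 (red), and the points of most roles lie around 0.

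Of the proneural factors, which Hes repressors hold down, Neurog2 was at 96.3, 151 and 120 CPM in WT and 138, 138 and 193 CPM in DKO, with overlapping groups. Its log2 fold change in DKO against WT was 0.35 ± 0.36, that of Atoh7 -0.33 ± 0.4 and that of Neurod1 0.6 ± 0.39, none past the threshold in edgeR's test. Over 11 alternative analyses Neurog2 ran from -0.29 to 0.95 and was called in 2. Neurod1 ran from -0.19 to 1.3 and was called in 2, and Atoh7 ran from -0.89 to 0.26 and was called in 0.

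Genes with the pattern most like a member were ranked by the root mean square difference of log2 CPM, centred on the mean of the 11 libraries, among 11274 tested genes of at least 5 CPM on average. For Lfng they were Shb (0.175), Lama1 (0.181) and Tle3 (0.202), against a median distance of 0.725. Shb is an adaptor of receptor tyrosine kinases and Lama1 a laminin chain of the retinal basement membrane. Both were chosen for following Lfng over these libraries, so their own DKO against WT values (-1.43 and -1.46 on the log2 scale) restate that choice. For Hes5, Sfrp2 (0.162), a Wnt modulator, and Fgf9 (0.171), a growth factor, were among the nearest, against a median of 0.681. For Dll1 they were Foxn4 (0.109), a factor of amacrine and horizontal cell precursors, Rcor2 (0.139), a corepressor, and Onecut1 (0.143), against a median of 0.486. Among the members, Dll1 and Dll4 were closest (0.169), followed by Notch1 and Dll1 (0.215), and Dll3 and Jag1 were farthest apart (1.143). All these distances are over the same 11 libraries, which share depth and tissue makeup, and describe likeness only.

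**Figure D5:**
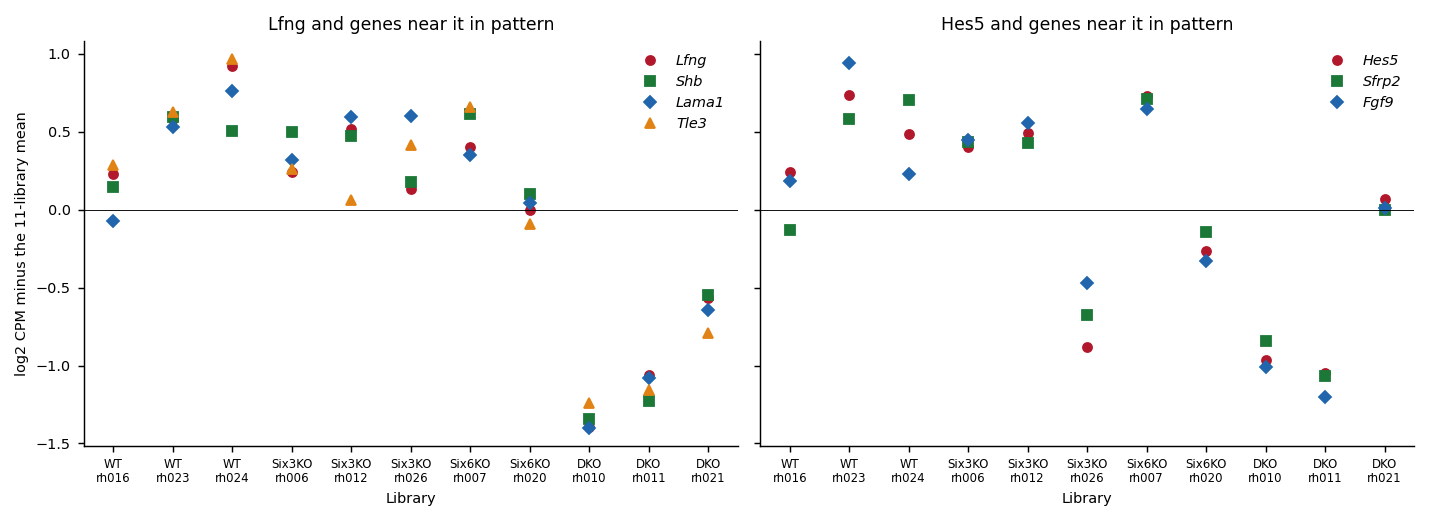
Log2 CPM minus the mean of the 11 libraries (y axis) for Lfng with Shb, Lama1 and Tle3 (left) and Hes5 with Sfrp2 and Fgf9 (right), in each library (x axis). The Lfng set is below 0 in the 3 DKO libraries and, for Lfng itself, at -1.395 to -0.566, while the Hes5 set is below 0 in DKO rh010 and rh011, Six3KO rh026 and Six6KO rh020, and near 0 (-0.005 to 0.069) in DKO rh021.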

How the data were processed

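The authors deposited raw counts for each gene symbol in a single table, 1 column a library. Per the submitters' processing notes, the tools were Trim Galore 0.3.7, TopHat2 2.0.13, HTSeq 0.6.1, Cufflinks 2.2.1 and Cuffdiff, with the build mm10 (GRCm38). Annotation, strand setting and how the 13498 genes were chosen were not given in the sources used here. DESeq2 was used for the authors' own comparisons, per the design text.

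Here edgeR 4.0.16 (R 4.3.3) was applied to the counts: filterByExpr (minimum count 10; 13292 genes), TMM scaling and 1 robust quasi-likelihood fit of 11 libraries and 4 group means. P-values were adjusted by Benjamini-Hochberg over all genes tested, and called under 0.05. The SE is the log2 fold change divided by the square root of F. Column names carry no replicate number, so no block was fitted. DESeq2 1.42.0 was an alternative. The fit was tested on simulated data. Log2 CPM used a prior count of 2.

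Named genes were all 10 members, other pathway genes called in any of 6 comparisons or having the smallest p of their role in the double mutant, the targeted genes, proneural factors and the 3 nearest patterns of Dll1, Lfng and Hes5. Some genes that this rule takes in are not reported here. Protein motifs of the Hes and Hey factors were not analysed here. Members and lists were chosen with earlier results of these data known.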

Additional observations from a re-analysis of the deposited data

How the results depend on the processing

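The log2 fold change of Lfng in DKO against WT kept its sign in 11 alternatives and 6 fits without 1 library, and its call in 10 and 2 of them. No paired analysis was possible because the columns carry no replicate number. The median of all genes moved by less than 0.1 under each scaling. The cause was not tested for any change below.

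Members called in DKO against WT (1) numbered 0 with the mesenchyme covariate, 2 with the blood vessel covariate, 3 with the retinal progenitor covariate (added after seeing the data), 3 with DESeq2 and 0 to 2 without single libraries. In DKO against Six3KO (0) they numbered 1 with the blood vessel or ganglion cell covariate, 2 with the progenitor covariate or DESeq2, and 0 to 1 without single libraries. In DKO against Six6KO (0) they numbered 1 with the ganglion cell covariate and 2 with the progenitor covariate or DESeq2.

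Over all genes, calls in DKO against WT (172) numbered 683 with the blood vessel, 626 with the ganglion cell, 112 with the lens and 607 with the progenitor covariate, 769 with DESeq2, 283 without rh026 and rh020, and 20 to 205 without single libraries. In DKO against Six3KO (78) they numbered 42 with the mesenchyme, 492 with the blood vessel, 620 with the ganglion cell, 0 with the lens and 489 with the progenitor covariate, 775 with DESeq2, 37 without rh026 and rh020, and 16 to 91 without single libraries. In DKO against Six6KO (31) they numbered 1 with the mesenchyme or lens, 126 with the blood vessel, 666 with the ganglion cell and 813 with the progenitor covariate, 669 with DESeq2, 682 with the compared groups alone, 4 without rh026 and rh020, and 1 to 77 without single libraries. Six3KO against WT (1) had 2 with the progenitor covariate and 18 with DESeq2. Six6KO against WT (0) had 1 with the progenitor covariate, 2 with DESeq2, 10 with the compared groups alone and 0 to 1 without single libraries. The departure from additivity (0) had 2 with the ganglion cell covariate, 240 with DESeq2 and 0 to 3 without single libraries.

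Signs of uncalled log2 fold changes, in DKO against WT unless stated, turned as follows. With the mesenchyme covariate they were -0.29 for Neurog2, -0.19 for Neurod1, 0.47 for Notch4, 0.01 for Jag2 and 0.77 for Hey2. With the ganglion cell covariate they were 0.05 for Dll1, 0.11 for Dll4, -0.1 for Jag1, 0.26 for Atoh7, 0.21 for Foxn4, 0.26 for Rcor2, 0.12 for Onecut1 and 0.22 for Mfng. With the progenitor covariate they were 0.11 for Foxn4, 0.17 for Rcor2 and 0.04 for Mfng. For Jag1 in DKO against Six3KO the lens covariate gave 0.83. Without single libraries Hey2 ran from -0.73 to 0.02 and Notch4 from -0.88 to 0.06.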
